A study of Mus musculus with 9 samples.

Results

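A set of 10 antioxidant genes was followed at the RNA level: the superoxide dismutases Sod1, Sod2 and Sod3, the glutathione peroxidase Gpx1, the heme oxygenase Hmox1, the quinone reductase Nqo1, the glutathione synthesis genes Gclc and Gclm, the thioredoxin reductase Txnrd1 and the cystine carrier Slc7a11. They are 10 of the 56289 genes in the expression table and were chosen by name, as genes of superoxide, heme and glutathione defence. Each symbol matched 1 Ensembl gene, and all 10 passed the filter on low values, under which 25417 genes were tested.

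Superoxide dismutases turn superoxide into hydrogen peroxide, Sod2 in the mitochondrial matrix, Sod1 mainly in the cytosol and Sod3 outside the cell. Glutathione peroxidases and peroxiredoxins then reduce the peroxide with electrons that come from NADPH through glutathione or thioredoxin. Many of these genes are known targets of the transcription factor NRF2, which KEAP1 holds back in unstressed cells, and Sod2 is known in many cell types as a gene that TNF-α induces through NF-κB.

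The study tested Wang Bi tablet (WBT), a herbal medicine, on the response of the mouse line RAW264.7 to TNF-α. Poly(A) RNA of 9 samples, 3 per group, was sequenced as paired-end libraries. The groups were untreated cells (Con), cells given 20 ng/ml TNF-α for 24 h (TNF-α), and cells given the same TNF-α with 1.0 µg/ml WBT for 24 h (TNF-α+WBT), with doses from the study's methods, and the labels give BALB/c as the strain of all of them. The labels write WBP for the added agent and name TNF-α without its species, which the study's methods give as human. The libraries were estimated to hold 16900000 to 26245000 fragments, a rough estimate. The study calls the 3 libraries of a group biological replicates and the labels do not state that they came from separate cultures, so p-values measure the spread between these libraries, which may be technical.

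RAW264.7 is a macrophage-like line, and the libraries were checked against genes typical of macrophages. Of 16 macrophage genes, 7 were listed at 0 in all 9 libraries, namely Ptprc, Itgam, Adgre1, Spi1, Tyrobp, Cybb and Ctss, and only Cd14, at a mean of 5.25 FPKM, was above 1 FPKM in every library. FPKM is a fragment count scaled by transcript length and library size. All 10 genes used by every cell were above 1 FPKM in each library, as were 9 of 12 fibroblast genes, led by Sparc at a mean of 1060 FPKM, and 6 of 9 Schwann cell genes, led by Ngfr at 125 FPKM. The macrophage label is therefore not borne out by these markers, and the samples are called by their treatment here. In bulk RNA, fewer cells of a type and less RNA per cell cannot be told apart.

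Genes known to respond to TNF-α were read first. Their list, like the others, was chosen with earlier results of these data known, so its counts are a description. Of 12 NF-κB target genes, 10 rose and 0 fell in TNF-α against Con by limma's moderated test at an adjusted p under 0.05, with a median log2 fold change of 1.68, against 746 higher and 490 lower among all genes tested and a median of 0.0. All fold changes were computed from log2(FPKM + 0.1), and the added 0.1 makes changes of low genes look smaller. The chemokine gene Cxcl1 went from 1.37 ± 0.148 FPKM in Con to 10.4 ± 0.987 in TNF-α and 8.89 ± 0.241 in TNF-α+WBT (SD, n = 3). Relb, an NF-κB subunit gene, went from 5.21 ± 0.504 to 23.5 ± 3.37 and 21.2 ± 1.64 FPKM.

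In that setting Sod3 was the only one of the 10 genes called. In TNF-α against Con, 1 of 10 genes passed an adjusted p under 0.05, where 4.86% of all genes tested did, and in TNF-α+WBT against Con again 1 of 10, against 3.71%. In TNF-α+WBT against TNF-α it was 0 of 10 by limma, against 0.00393%, and 1 of 10, Sod2, had an unadjusted p under 0.05, against 6.31%. A p that misses the threshold does not show that levels were equal. In simulated data limma missed some genes changed by log2 1, recovering 75% of them, and all of these averaged 1 FPKM or more. The changes of the 10 genes were smaller than log2 1, and Nqo1 averaged 0.611 FPKM, so the 75% is no measure for them. The single gene called among all genes in TNF-α+WBT against TNF-α, March8, named after its value was seen, is none of the 10. By the study's thresholds, a fold change over 2 with a p under 0.05, the p taken here as unadjusted, 0 of the 10 genes passed in any comparison, against 2.42% of genes in TNF-α against Con, 1.12% in TNF-α+WBT against TNF-α and 2.29% in TNF-α+WBT against Con. At an unadjusted p under 0.05 alone there were 3 of the 10 genes in TNF-α against Con, where 16.1% of all genes passed, and 4 in TNF-α+WBT against Con, where 14.7% did. Genes averaging 1 FPKM or more were called more often than all genes. At an adjusted p under 0.05, 646 of these 12684 genes were higher and 416 lower in TNF-α against Con. In TNF-α+WBT against Con 519 were higher and 301 lower. At an unadjusted p under 0.05, 3054 of them passed in TNF-α against Con and 2734 in TNF-α+WBT against Con. The comparisons share libraries, so their values are set side by side only.

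**Figure D1:**
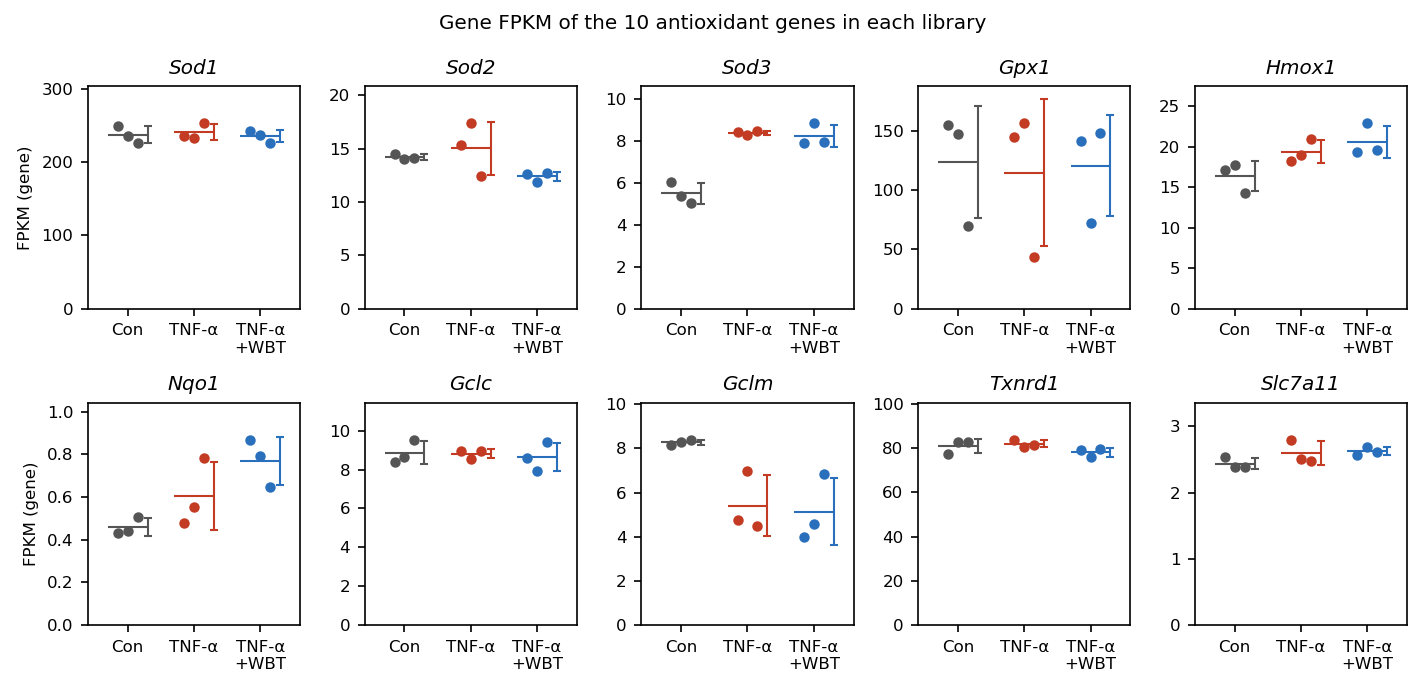
Gene FPKM of the 10 genes in each library, with a panel per gene and a linear axis from 0. Points are the 3 libraries of a group in the order of their numbers, horizontal lines are means and bars are SD. Sod3 lies between 5.05 and 6.06 FPKM in Con and between 7.9 and 8.86 FPKM in both other groups together.

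Sod2, the mitochondrial enzyme, lies at chr17:13006846-13040063 (GRCm38) and was at 14.5, 14.0 and 14.1 FPKM in the Con libraries, 15.3, 17.4 and 12.4 in TNF-α, and 12.6, 11.9 and 12.7 in TNF-α+WBT. TNF-α libraries 1 and 2 were high and library 3 was low, so the group straddled Con, while every TNF-α+WBT library lay below every Con library. The log2 fold change in TNF-α against Con was 0.07 (SE 0.11, limma adjusted p = 0.839), with a 95% interval from -0.18 to 0.31, so the upper bound is a 1.24-fold rise. Without TNF-α library 2 it was -0.05. Between TNF-α+WBT and TNF-α it was -0.26 (SE 0.11, adjusted p = 0.762), where an exact two-sided permutation test of the 6 libraries gave p = 0.3, and in TNF-α+WBT against Con -0.2 (SE 0.11, adjusted p = 0.454).

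The gene value of Sod2 combines 8 annotated transcripts. The protein-coding Sod2-201, of 5861 bases in 5 exons, was at 12.9, 10.2 and 12.0 FPKM in Con, 9.24, 9.67 and 10.4 in TNF-α, and 9.37, 10.2 and 10.9 in TNF-α+WBT. Its highest values were in Con libraries 1 and 3, and the 3 groups overlapped. The transcript Sod2-204, annotated as retaining intron sequence, was at 0.368, 2.78 and 0.615 FPKM in Con, 4.94, 6.79 and 0.807 in TNF-α, and 2.2, 0.972 and 0.544 in TNF-α+WBT. The libraries with the most Sod2-204, TNF-α 1 and 2, are those with the highest gene value. Without Sod2-204 the Sod2 sum was 14.1, 11.2 and 13.5 FPKM in Con, 10.3, 10.6 and 11.6 in TNF-α, and 10.4, 10.9 and 12.1 in TNF-α+WBT.

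Sod2-204 is 644 bases long, against 5861 for Sod2-201, and FPKM divides by length. In TNF-α library 2 it held 39.1% of the Sod2 FPKM but 7.09% of the estimated Sod2 fragments, which is 98.8 fragments, and in Con library 1 it held 2.53% and 0.296%. Its last exon, at chr17:13010520-13010751 on GRCm38, runs 115 bases into intron 3 of Sod2-201. The rest of Sod2-204 lies in exons of Sod2-201, so reads from there could come from either transcript. The transcript values, and the sums without Sod2-204, therefore rest on how shared reads were divided. Fitted over all 80149 transcripts tested, an alternative chosen after seeing the data, Sod2-201 had a log2 fold change of -0.25 (SE 0.11, limma adjusted p = 0.626) in TNF-α against Con, and 0.05 (SE 0.11, adjusted p = 0.981) in TNF-α+WBT against TNF-α. Both signs are opposite to those of the gene value, and neither form was called. At that level 0.635% of transcripts were called in TNF-α against Con, 0.0424% in TNF-α+WBT against TNF-α and 0.455% in TNF-α+WBT against Con. For Sod2-204 itself the log2 fold change in TNF-α against Con was 1.68, with a 95% interval from -0.52 to 3.87 and a limma adjusted p of 0.727.

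**Figure D2:**
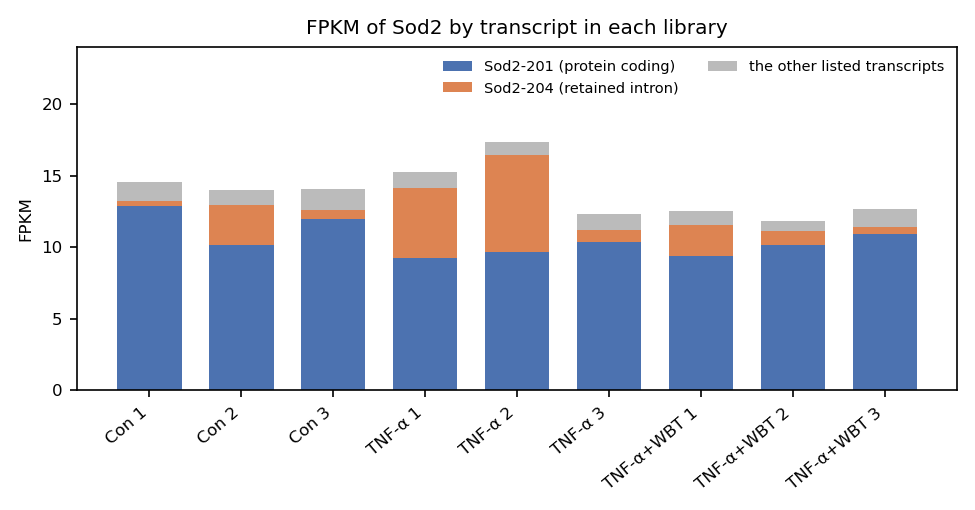
FPKM of Sod2 in each of the 9 libraries, stacked by transcript, on a linear axis from 0. Sod2-204 reaches 4.94 and 6.79 FPKM in TNF-α libraries 1 and 2, and Sod2-201 lies between 9.24 and 12.9 FPKM in all libraries.

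Among 12683 other genes averaging 1 FPKM or more, the highest Pearson r of log2 values with Sod2 over the 9 libraries was 0.93 for Rsad1, then 0.92 for Fabp7, 0.92 for Zkscan6, 0.91 for Ankrd54 and 0.9 for Gm28876. These are the top of a long list over few libraries that share 3 groups, and they are given as a description. The r of the Sod2 gene value was 0.59 with Sod2-204 and -0.06 with Sod2-201, which has the larger share of it in every library.

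Sod3, the extracellular enzyme, lies at chr5:52363791-52371418 and was at 6.06, 5.38 and 5.05 FPKM in Con, 8.43, 8.27 and 8.47 in TNF-α, and 7.9, 8.86 and 7.96 in TNF-α+WBT. All 6 TNF-α-treated libraries lay above all 3 Con libraries, and the treated groups overlapped each other. Sod3 rose 1.52-fold in TNF-α against Con (log2 0.61, SE 0.08, limma adjusted p = 0.003) and 1.49-fold in TNF-α+WBT against Con (log2 0.58, SE 0.08, adjusted p = 0.0048). Against TNF-α alone, TNF-α+WBT gave a log2 fold change of -0.03, with a 95% interval from -0.21 to 0.15. The gene has 1 annotated transcript, at an estimated 382 to 698 fragments per library, and among 80149 transcripts its adjusted p was 0.0425 in TNF-α against Con and 0.0642 in TNF-α+WBT against Con. An exact two-sided permutation test of 3 against 3 libraries gave p = 0.1 for each rise, the smallest it can give.

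Sod1, the cytosolic enzyme, was the most abundant of the 10 genes per length, at 226 to 253 FPKM over all libraries, with overlapping groups. Its log2 fold change in TNF-α against Con was 0.02 (95% interval -0.09 to 0.14) and turned to -0.03 under quantile normalization. Ccs, which loads copper into Sod1, was not called in any comparison. Sod1 overlaps the opposite-strand gene Scaf4, at a mean of 18.7 FPKM, and reads of the 2 genes where they overlap cannot be told apart without strand.

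Gclm encodes the modifier subunit and Gclc the catalytic subunit of glutamate-cysteine ligase, the first enzyme of glutathione synthesis. Gclm was at 8.17, 8.29 and 8.4 FPKM in Con, 4.75, 6.98 and 4.5 in TNF-α, and 3.97, 4.58 and 6.85 in TNF-α+WBT. Every treated library lay below every Con library, and the treated groups were wider than Con, with TNF-α library 2 and TNF-α+WBT library 3 closest to it. The log2 fold change was -0.63 in TNF-α against Con (SE 0.21, limma adjusted p = 0.173) and -0.72 in TNF-α+WBT against Con (SE 0.21, adjusted p = 0.139), neither called. Without TNF-α+WBT library 3 the second was -0.94 with an adjusted p of 0.041, the lowest in a range from 0.041 to 0.493 over the alternatives for that value. The coding transcript Gclm-201 was at 7.07, 7.47 and 7.39 FPKM in Con, 3.74, 5.92 and 3.35 in TNF-α, and 2.31, 3.61 and 5.76 in TNF-α+WBT. Gclm overlaps the opposite-strand gene Gm17494, at a mean of 2.37 FPKM, and reads there cannot be assigned without strand.

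Gclc lay between 7.94 and 9.54 FPKM in all libraries, with overlapping groups. Its log2 fold change in TNF-α against Con was -0.01, with a 95% interval from -0.18 to 0.17. Slc7a11, which brings in the cystine for glutathione, lay between 2.38 and 2.8 FPKM. Its groups did not overlap between TNF-α+WBT and Con, with a log2 fold change of 0.11 (SE 0.1, limma adjusted p = 0.702). Over the 16 genes of glutathione synthesis and use, 4 rose and 2 fell in TNF-α against Con, where 4.86% of all genes tested were called, and 3 rose in TNF-α+WBT against Con, where 3.71% were. Ggt1, which breaks down extracellular glutathione, went from 17.0 ± 2.02 to 27.2 ± 1.08 and 23.1 ± 0.949 FPKM (SD, n = 3), and the membrane transferase Mgst1 from 17.3 ± 0.912 to 26.2 ± 3.95 and 24.6 ± 1.31. Gsto1, an omega-class transferase, fell from 145 ± 3.99 to 84.3 ± 21.4 FPKM in TNF-α and was 113 ± 2.49 in TNF-α+WBT. It was not called between TNF-α+WBT and TNF-α (log2 0.45, SE 0.14, limma adjusted p = 0.674). Over the reported fit and its 19 alternative settings, 20 in all, Ggt1 and Mgst1 passed in all 20 in TNF-α against Con, and in 15 and 12 of them in TNF-α+WBT against Con. In TNF-α against Con the fall of Gsto1 passed in 16 of 20 and that of Ggct in 9. Chac1 passed in 13 of 20 in TNF-α+WBT against Con. It was also called in TNF-α against Con (log2 0.48, SE 0.11, limma adjusted p = 0.0387). Its means were 3.35 FPKM in Con, 4.71 in TNF-α and 4.88 in TNF-α+WBT.

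Gpx1, a glutathione peroxidase, was at 155, 148 and 69.6 FPKM in Con, 145, 157 and 43.3 in TNF-α, and 142, 72.1 and 149 in TNF-α+WBT. Con library 3, TNF-α library 3 and TNF-α+WBT library 2 were low, 1 in each group, and the groups overlapped. The SE of its log2 fold change was 0.54, the largest of the 10, and the 95% interval in TNF-α against Con ran from -1.46 to 1.0 around -0.23. Without TNF-α library 3 that value was 0.37. Among 12 peroxide-removing genes 11 were tested, and 3 were called in TNF-α against Con, beside 4.86% of all genes tested. Gpx4, which reduces lipid peroxides, rose from 241 ± 4.94 to 326 ± 9.52 FPKM in TNF-α (log2 0.43, SE 0.04, limma adjusted p = 0.000194) and was 309 ± 7.47 in TNF-α+WBT. The peroxiredoxin gene Prdx5 rose as well, from 51.9 ± 2.29 to 66.4 ± 2.0 FPKM, and was 66.6 ± 2.82 in TNF-α+WBT. Prdx6 fell from 113 ± 14.7 to 85.1 ± 5.22 FPKM in TNF-α and was 106 ± 2.7 in TNF-α+WBT. It was not called between TNF-α+WBT and TNF-α (log2 0.31, SE 0.09, limma adjusted p = 0.626). TNF-α+WBT against Con had 2 higher, Gpx4 and Prdx5, and 0 lower, beside 3.71% of all genes called. Both passed in all 20 settings in each comparison with Con, whereas the fall of Prdx6 passed in 8 of 20 and in 1 of the 9 fits that each left out a library.

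Hmox1, which opens the heme ring, was at 17.1, 17.7 and 14.3 FPKM in Con, 18.2, 19.0 and 20.9 in TNF-α, and 19.3, 22.9 and 19.6 in TNF-α+WBT. Every treated library lay above every Con library, by a small margin in TNF-α. The log2 fold change was 0.25 (SE 0.1, limma adjusted p = 0.265) in TNF-α against Con and 0.33 (SE 0.1, adjusted p = 0.137) in TNF-α+WBT against Con. Without Con library 3, the lowest, these values were 0.15 and 0.24. Of 9 genes of heme breakdown and ferritin, 1 rose in both comparisons with Con, where 4.86% and 3.71% of all genes were called, the heme carrier Slc48a1, from 56.5 ± 2.0 to 70.0 ± 1.29 and 66.7 ± 4.5 FPKM. Its call held in 19 of 20 settings in TNF-α against Con and in 6 of 20 in TNF-α+WBT against Con.

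Nqo1, the quinone reductase, was the lowest of the 10 genes, at 0.432, 0.44 and 0.508 FPKM in Con, 0.477, 0.552 and 0.783 in TNF-α, and 0.869, 0.79 and 0.645 in TNF-α+WBT. All TNF-α+WBT libraries lay above all Con libraries, and TNF-α overlapped both. These levels rest on an estimated 15 to 25 fragments per library. The log2 fold change in TNF-α+WBT against Con was 0.63 (SE 0.23, limma adjusted p = 0.229), with a 95% interval from 0.11 to 1.14. At this low level the value depends on the pseudocount, being 0.27 with 1 and 0.72 with 0.01. Of 9 genes of quinone and carbonyl reduction, 1 rose and 1 fell in TNF-α against Con, beside 4.86% of all genes called, the epoxide hydrolase Ephx1 from 114 ± 8.59 to 145 ± 5.47 FPKM and the aldehyde dehydrogenase Aldh3a1 from 17.6 ± 0.379 to 15.1 ± 0.569 FPKM. These calls are weak, with Ephx1 passing in 11 of 20 settings and Aldh3a1 in 6.

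Txnrd1, which reduces thioredoxin, lay between 75.8 and 83.8 FPKM in all libraries, and its main transcript Txnrd1-206 held 78.8% to 87.9% of that. It was at 83.8, 80.6 and 81.5 FPKM in TNF-α and 79.1, 75.8 and 79.4 in TNF-α+WBT, so those groups did not overlap. The log2 fold change between them was -0.07 (SE 0.04, limma adjusted p = 0.824). None of the 11 thioredoxin and glutaredoxin genes was called by limma in any comparison, where 4.86%, 0.00393% and 3.71% of all genes were called in TNF-α against Con, TNF-α+WBT against TNF-α and TNF-α+WBT against Con. At such shares a count of 0 among 11 genes says little. At an unadjusted p under 0.05 there were 2, 0 and 3 of them, where 16.1%, 6.31% and 14.7% of all genes passed. Among the 12684 genes averaging 1 FPKM or more, 3054, 876 and 2734 passed. Eid3, at a mean of 1.44 FPKM, lies within Txnrd1 on the same strand.

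Groups that did not overlap were counted for the 10 genes beside all genes. In TNF-α against Con this held for 3 of 10, Sod3 and Hmox1 higher and Gclm lower, and for 21.2% of all genes tested. Between TNF-α+WBT and TNF-α it held for 1 of 10, Txnrd1, and for 11.0%. Between TNF-α+WBT and Con it held for 6 of 10, Sod3, Hmox1, Nqo1 and Slc7a11 higher and Sod2 and Gclm lower, and for 19.5%.

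**Figure D3:**
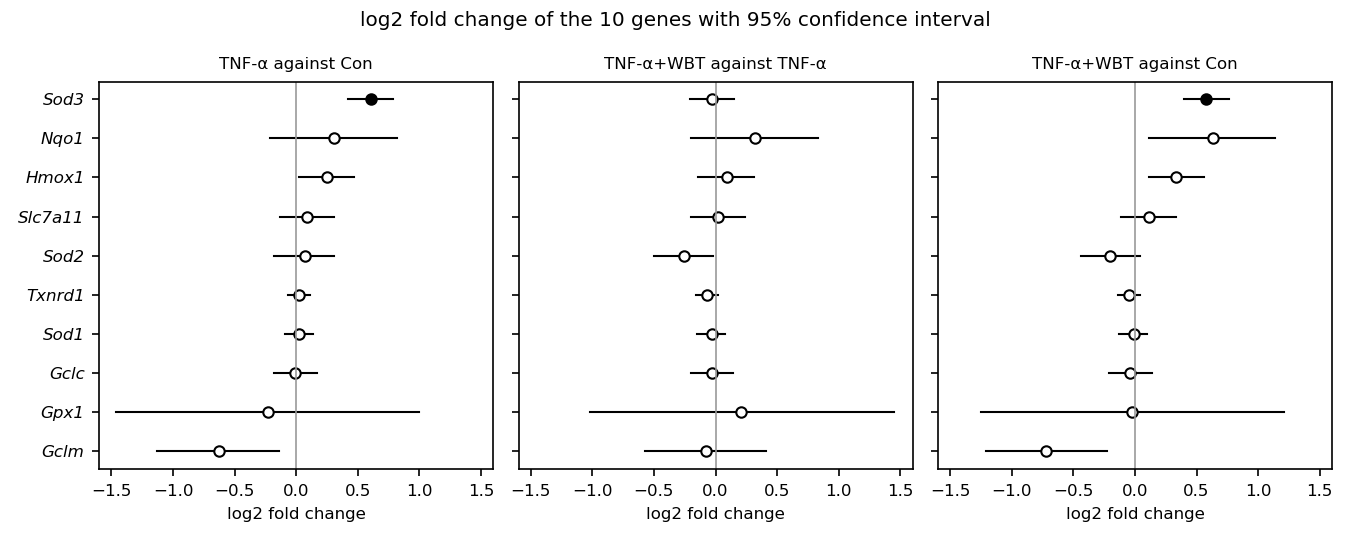
The log2 fold change of each of the 10 genes in the 3 comparisons, from log2(FPKM + 0.1), with 95% intervals from limma. Filled points passed an adjusted p under 0.05, which Sod3 did at 0.61 and 0.58 in both comparisons with Con. The intervals of Gpx1 are the widest.

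The order of the 10 genes by mean FPKM was nearly the same in all groups, from Sod1 through Gpx1, Txnrd1, Hmox1, Sod2 and Gclc down to Slc7a11 and Nqo1. Sod3 was the eighth in Con, at a mean of 5.5 FPKM, below Gclm at 8.29. In TNF-α Sod3 was at 8.39 and Gclm at 5.41 FPKM, and their libraries did not overlap in either group. Gpx1 overlapped Txnrd1 in every group, Hmox1 overlapped Sod2 in Con only, and Gclc overlapped Sod3 in TNF-α+WBT.

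Among regulators of the pathway, 3 of 10 NRF2 regulation genes rose in TNF-α against Con and 2 in TNF-α+WBT against Con, with 0 lower in either, beside 4.86% and 3.71% of all genes called. Nfe2l1, a relative of NRF2, rose from 40.6 ± 0.718 to 60.2 ± 0.896 FPKM (log2 0.57, SE 0.04, limma adjusted p = 5.14e-05) and was 61.0 ± 2.36 in TNF-α+WBT. Sqstm1, the autophagy receptor that binds KEAP1, went from 203 ± 1.29 to 238 ± 4.82 and 243 ± 6.83 FPKM. Nfe2l2, which encodes NRF2, rose from 26.5 ± 0.482 to 30.2 ± 1.09 FPKM in TNF-α. Nfe2l1 passed in all 20 settings and Sqstm1 in 19 in each comparison with Con, while Nfe2l2 passed in 7 of 20, neither median centring nor quantile normalization among them. Of 22 NRF2 target genes, 6 of them among the 10 genes above, 1 rose and 0 fell in TNF-α against Con, beside 4.86% of all genes called. The gene that rose was Slc48a1, and the list had a median log2 fold change of 0.07 against 0.0 for all genes tested. Against Con, TNF-α+WBT had 2 higher, beside 3.71% of all genes, Slc48a1 and Me1, the latter an NADPH-making enzyme that was also the single call among 8 genes of NADPH supply. Me1, like Slc48a1 there, passed in 6 of 20 settings and in neither scaling alternative. At an unadjusted limma p under 0.05 there were 8 of the 22 NRF2 target genes in TNF-α against Con, where 16.1% of all genes passed. In TNF-α+WBT against Con there were 9 of the 22, where 14.7% of all genes passed. Of the 22 genes, 19 were above 1 FPKM in every library, and such genes passed more often. Among the 12684 genes averaging 1 FPKM or more, 3054 passed in TNF-α against Con and 2734 in TNF-α+WBT against Con.

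Of 19 oxidant-producing enzymes 14 were tested, and Cybb, Cyba and Mpo were listed at 0 in all libraries. Xdh, which can release superoxide while breaking down purines, rose from 15.4 ± 1.72 to 23.9 ± 0.536 FPKM in TNF-α and was 22.6 ± 0.941 in TNF-α+WBT. Ncf4, a cytosolic part of the phagocyte oxidase, was at 0, 0.0271 and 0 FPKM in Con, 1.12, 0.917 and 0.468 in TNF-α, and 0.439, 0.524 and 0.626 in TNF-α+WBT. Both were called in TNF-α against Con and in TNF-α+WBT against Con in every setting that tested them, beside 4.86% and 3.71% of all genes. Ncf4 met the filter on low values through the treated libraries, so its call is given as a description. The settings that tested Ncf4 included a fit with no filter. The size of the Ncf4 change is set by the pseudocount, with a log2 fold change of 0.85 to 5.68 over the settings in TNF-α against Con and 0.6 to 5.11 in TNF-α+WBT against Con. Of 14 mitochondrial matrix genes, which share their compartment with Sod2, 1 fell in TNF-α against Con, beside 4.86% of all genes called, the chaperone gene Hspd1, from 230 ± 8.68 to 191 ± 3.45 FPKM. In TNF-α+WBT against Con 2 fell, Hspd1 and Mdh2, beside 3.71% of all genes. Hspd1 passed in 19 of 20 settings in each comparison, and Mdh2 in 8 of 20 and in 0 of the 9 fits that each left out a library. None of the 12 lists held a gene called in TNF-α+WBT against TNF-α by limma, where 0.00393% of all genes were called, and 11 of their 120 genes tested had an unadjusted p under 0.05, beside 6.31% of all genes.

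Genes of the fibroblast and Schwann cell marker lists were called in the same comparisons as Sod3. Of 11 fibroblast genes tested, 2 were higher and 2 lower in TNF-α against Con, and 0 higher and 2 lower in TNF-α+WBT against Con. Of 9 Schwann cell genes, 4 were lower and 0 higher in TNF-α against Con, and in TNF-α+WBT against Con 3 were lower. Among all 25417 genes tested 4.86% and 3.71% were called in these comparisons, with 490 and 356 genes lower. The summed level of the Schwann cell genes was 443, 449 and 448 FPKM in Con, 333, 357 and 312 in TNF-α, and 345, 355 and 376 in TNF-α+WBT, and 0 of the 9 genes were at 0 in all libraries. The part of either list in the values of the 10 genes was not tested.

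Promoter windows of 300 bases around the start were found in the RefSeq table (GRCm38.p6) for 7 of the 10 genes, in 9 windows, and not for Sod3, Hmox1 and Gclc. They were searched on both strands for the antioxidant response element TGACNNNGC, the NRF2 motif, which 12.4% of all 32851 windows hold, and for the NF-κB element, which 8.46% hold. The first was found in windows of 3 genes, Sod1, Gclm and Txnrd1, and the second in those of Sod2 and Gpx1. The windows of Sod2, Gclm and, as a gene that rose with TNF-α, Nfkbia are shown with matches in capitals, Nfkbia being named after its values were seen. A match describes letters and is no evidence of binding.
Sod2, chr17:13007589-13007888, plus strand: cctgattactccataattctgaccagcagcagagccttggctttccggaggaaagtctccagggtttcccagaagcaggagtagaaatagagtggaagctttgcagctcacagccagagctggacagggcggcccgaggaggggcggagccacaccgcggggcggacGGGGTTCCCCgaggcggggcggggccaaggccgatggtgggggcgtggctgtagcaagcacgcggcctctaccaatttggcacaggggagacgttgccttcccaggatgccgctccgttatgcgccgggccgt
Gclm, chr3:122245307-122245606, plus strand: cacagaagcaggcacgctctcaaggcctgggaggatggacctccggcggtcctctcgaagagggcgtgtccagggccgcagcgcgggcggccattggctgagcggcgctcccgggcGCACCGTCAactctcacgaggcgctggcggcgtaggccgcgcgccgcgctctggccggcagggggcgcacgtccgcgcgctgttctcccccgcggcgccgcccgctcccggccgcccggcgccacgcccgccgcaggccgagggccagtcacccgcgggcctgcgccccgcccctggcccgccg
Nfkbia, chr12:55492598-55492897, minus strand: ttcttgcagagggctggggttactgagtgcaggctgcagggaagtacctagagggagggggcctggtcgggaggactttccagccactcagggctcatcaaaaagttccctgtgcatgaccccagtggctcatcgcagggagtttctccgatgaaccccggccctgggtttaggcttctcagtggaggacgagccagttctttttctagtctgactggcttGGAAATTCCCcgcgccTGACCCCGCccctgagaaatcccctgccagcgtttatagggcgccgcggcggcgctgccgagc
The match in Sod2 is an NF-κB element whose loose pattern fits on either strand, and that in Gclm an antioxidant response element on the opposite strand. Nfkbia, which encodes the inhibitor IκBα, holds 1 of each, with no overlap between them, and its log2 fold change in TNF-α against Con was 1.7 (SE 0.05, limma adjusted p = 6.36e-07), beside 0.07 for Sod2.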

How the data were processed

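The authors deposited FPKM values per gene and per transcript for 9 poly(A) libraries. Their workflow names HISAT2, StringTie and Ballgown, with versions and build not given in the sources used here. Positions are from GENCODE M21 (GRCm38), which holds 98.1% of the 56289 genes. A gene entered the fit if 3 or more libraries had it above 0 FPKM. The values, as log2(FPKM + 0.1), were fitted with limma 3.58.1 (lmFit, eBayes with trend, R 4.3.3) in 1 model over all libraries, and p-values were adjusted by Benjamini-Hochberg over 25417 genes. In simulated data the fit recovered 75% of 100 genes changed by log2 1 and 97% of 100 changed by log2 2, with 7 false calls. The genes changed in the simulation all averaged 1 FPKM or more. A first requirement on recovery at log2 1 was not met, and the requirement was then moved to log2 2. Other tools were Python 3.11.15 with numpy 2.4.6, pandas 2.3.3, matplotlib 3.10.9 and scipy 1.17.1. Sequencing depth was read from the spacing of low values in genes of a single transcript over 1000 bases. The upper limit of the depth search was lowered after doubled spacings came out for 5 libraries. Of the low values, 50.0% to 53.4% lay within 0.1 of a whole fragment, where chance gives 20.0%, so fragment numbers are approximate. Named were the 10 genes, up to 4 called genes per list and comparison with the largest change, the 5 genes most correlated with Sod2, transcripts of at least 10% share, overlapping genes and markers. The 10 genes and the lists were chosen with earlier results of these data known. Alternatives covered the pseudocount, filter, trend, groups fitted, scaling, replicate block, transcript sums and each library left out, and, chosen after seeing the data, the most abundant transcript. 1 further marker gene is not reported here.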

Additional observations from a re-analysis of the deposited data

How the results depend on the processing

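Sod3 kept its call in both comparisons with Con under all 19 alternative settings, with a log2 fold change of 0.53 to 0.68 and a limma adjusted p of 0.00153 to 0.0163 in TNF-α against Con, and of 0.51 to 0.65 and 0.0025 to 0.0318 in TNF-α+WBT against Con. With the most abundant transcript in place of the gene, chosen after seeing the data, 0 of the 10 genes were called in TNF-α+WBT against Con, where Sod3 kept its log2 fold change of 0.58 among more features tested, Sod2 was -0.25 in TNF-α against Con and 0.05 in TNF-α+WBT against TNF-α, and Txnrd1 was 0.0 in TNF-α against Con. Under quantile normalization Sod1 was -0.03 in TNF-α against Con. The cause was not tested. Of 37 values of named list genes called in a comparison, 18 kept their call in every setting that tested them, 19 lost it in some, and 0 changed sign.

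Leaving out 1 library at a time gave these log2 ranges where the sign changed. In TNF-α against Con they were -0.05 to 0.2 for Sod2, -0.6 to 0.37 for Gpx1, -0.05 to 0.04 for Gclc, -0.02 to 0.06 for Sod1 and -0.01 to 0.04 for Txnrd1. In TNF-α+WBT against TNF-α they were -0.31 to 0.11 for Gclm, -0.39 to 0.55 for Gpx1, -0.09 to 0.03 for Gclc, -0.01 to 0.07 for Slc7a11, -0.06 to 0.0 for Sod1 and -0.08 to 0.0 for Sod3. In TNF-α+WBT against Con they were -0.39 to 0.32 for Gpx1, -0.1 to 0.02 for Gclc and -0.05 to 0.02 for Sod1. The called members in TNF-α+WBT against Con numbered 1 to 2, with Gclm added without TNF-α+WBT library 3. For Sod2 the ranges were -0.39 to -0.15 in TNF-α+WBT against TNF-α and -0.21 to -0.17 in TNF-α+WBT against Con.

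Counts of all genes past a 2-fold change and p under 0.05 were 615, 284 and 583 in TNF-α against Con, TNF-α+WBT against TNF-α and TNF-α+WBT against Con. They were 128, 8 and 105 with a pseudocount of 1, 1057, 639 and 1040 with 0.01, and 207, 14 and 167 for genes averaging 1 FPKM or more. The single gene called at an adjusted p under 0.05 in TNF-α+WBT against TNF-α became 11 with a pseudocount of 0.01, 7 without the trend, 2 with only the groups compared, 2 with transcript sums and 0 to 11 with a library left out. In TNF-α+WBT against Con the count of 942 became 588 to 817 with a library left out.

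With the replicate number as a replicate block, Sod2 was 0.07, -0.26 and -0.2 in the 3 comparisons, the called members were 1, 0 and 1, and no call of a member changed, though calls of list genes such as Prdx6 and Nfe2l2 were lost. The genes called were 893, 0 and 701, against 1236, 1 and 942 without the block. After removal of group means, same-numbered libraries correlated at -0.05 to 0.1 and differently numbered ones at -0.12 to 0.12. No shared deviation by number was seen, which cannot tell whether libraries were prepared in numbered sets.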
